A study of Mus musculus with 20 samples.

Results

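The genes of the proteasome were followed through mouse oocyte maturation and the first cleavage, in 48 of the 23309 gene symbols that the deposited tables hold. They are all the symbols that begin with Psma to Psmg and a number, without the interacting-protein and pseudogene symbols. By role they fall into 7 subunits of the 20S alpha ring, 7 constitutive subunits of the 20S beta ring, 5 tissue-restricted 20S subunits, 6 ATPases and 11 non-ATPase subunits of the 19S regulatory particle, 7 assembly factors, and 5 activators or inhibitors of the core.

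The proteasome degrades proteins that carry ubiquitin chains. Its 20S core is a barrel in which alpha rings form the gates and beta rings hold the proteolytic sites, and the 19S particle on either end binds the chains, removes them and threads the unfolded protein inwards. Every ring position is filled by a different gene product, so that a working particle needs all of its subunits together. In oocytes the proteasome is known for destroying cyclin and securin in meiosis and for clearing maternal proteins after fertilization. The fully grown oocyte makes almost no new mRNA, and it lives on stored maternal transcripts whose poly(A) tails decide when they are translated and when they decay. BTG4 is an adaptor that brings the CCR4-NOT deadenylase, which shortens those tails, to maternal mRNA, and the ERK kinases act in the maturing oocyte downstream of Mos.

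All libraries were labelled as ICR mice. In the first experiment, oocytes and embryos labelled Btg4-/- or wild type were taken at the germinal vesicle stage (GV, before the meiotic divisions resume), at metaphase II (MII, the ovulated egg), as zygotes and as 2-cell embryos, with 2 libraries in each of these 8 groups. In the second experiment, 1 library each came from GV and MII oocytes labelled Erk-/- or wild type, so that nothing in it can be tested. Females were 21 to 23 days old and had received PMSG and hCG, and those used for embryos were mated. Each library pooled 60 oocytes or embryos. The labels give neither the Btg4 allele, nor which Erk gene was removed, nor a promoter for a conditional deletion, and they do not say whether the 2 libraries of a group came from separate females, so the p-values below measure the spread between these libraries only.

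Values are FPKM (fragments per kilobase of transcript, scaled to the size of the library), and changes are differences of log2(FPKM + 1) with their standard error (SE) from limma, called at an adjusted p below 0.05 over the 12311 genes tested. Of the 48 genes 46 passed the filter of a mean of 1 FPKM in at least 1 group; Psma8 and Psmb8 did not. Depth, estimated from the deposited intervals taken as 4 SD wide, was about 2860000 to 5070000 fragments for libraries of the Btg4 series and 5880000 to 8600000 for those of the Erk series. Between 1 and 24 of the 48 genes per library had an FPKM outside their own deposited interval, so those intervals were not used as errors. Btg4 itself read 1980 and 1881 FPKM in GV oocytes carrying the Btg4-/- label, against 1450 and 1673 in the wild type. It was lower under the Btg4-/- label at MII (172 and 191 against 415 and 406) and higher at the 2-cell stage (3514 and 3632 against 1147 and 964). The gene's FPKM therefore did not follow the label at GV or at 2 cells, and the deleted part is not known here, so groups are named by their labels. In the Erk experiment Mapk3, which encodes an ERK kinase, stood at 52.3 FPKM in the GV library labelled Erk-/- and 333 in wild-type GV, and at 34.3 and 25.7 at MII, and since the labels do not name the gene removed, these libraries too are named by their labels. The 10 oocyte markers summed to between 2033 and 20070 FPKM in the 20 libraries. The 11 granulosa and cumulus markers summed to between 37.2 and 60.3 FPKM at GV of the Btg4 experiment and to at most 22.6 elsewhere. The 6 sperm markers summed to between 0 and 13.6 FPKM, and 3 of them, Prm1, Tnp1 and Tnp2, were at 0 in every library. Prm2 reached 13.6 FPKM, in the GV library labelled Erk-/-, and was higher at MII under the Btg4-/- label, at 4.38 and 5.10 against 0.911 and 0 FPKM (2.05 ± 0.56, adjusted p = 0.00748). The 8 blood and immune markers summed to between 0 and 84.1 FPKM, mostly from Hba-a1 where the sum was highest. Cd74 reached 5.36 FPKM in the wild-type GV library of the Erk experiment, and Ptprc was at 0 in every library. The part of these cells in the results was not tested.

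Transcript ends are shown here for the genes in which a cytoplasmic polyadenylation element was found, because this element is the one through which tails of maternal mRNAs are lengthened in maturing oocytes. The letters TTTTAT or TTTTAAT were searched on the sense strand in the last 100 bases of the 3′ UTR of the longest protein-coding transcript of each gene (GENCODE M21, GRCm38). Of the 39 members with a 3′ UTR of at least 100 bases, 5 held it, which is 12.8% against 17.8% of 19732 protein-coding genes. The element is in capitals within 24 bases.
Psma5: tgtgtgtttTTTTATgaagtctgt
Psmb1: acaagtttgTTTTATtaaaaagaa
Psmg1: tgttttgtaTTTTATtctggcttg
Psmg3: ggaagatttTTTTATtaaaaataa
Psma1: taccaatgtTTTTATatgaagaaa
Psma5 encodes an alpha subunit on mouse chromosome 3, Psmb1 a structural beta subunit on chromosome 17, and Psmg1 and Psmg3, on chromosomes 16 and 5, encode chaperones that help to build the alpha ring. These 4 genes were higher at MII under the Btg4-/- label, although with a correction for transcript length Psmg1 was at 0.09 (limma adjusted p = 0.734). Psma1, an alpha subunit on chromosome 7, did not pass the test at MII. FPKM is given per gene, so whether the transcript with the printed end was the one expressed is not known. By call at MII, 4 of 20 members that were higher, 0 of 6 that were lower and 1 of 11 that did not pass held the element.

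In wild-type GV oocytes the constitutive subunits were abundant and unequal. Psma7 was the highest of the 14 core subunits at 1157 and 1097 FPKM, and Psma4, another alpha subunit, was the lowest at 63.3 and 54.5. The 19S particle was lower, with medians over its 17 subunits of 38.6 and 30.2 FPKM against 247 and 247 for the core. Within it Psmd4, the ubiquitin receptor that binds substrate chains, was highest at 242 and 243 FPKM. The lowest was Psmd1, a scaffold subunit, in the first library at 4.89 and Psmd13, a lid subunit, in the second at 3.53. The 5 tissue-restricted genes stayed at the floor of the data. Psmb8, Psmb9 and Psmb10, the catalytic subunits of the immunoproteasome, Psmb11 of the thymus and Psma8 of the testis did not exceed 2.22 FPKM in any of the 20 libraries. The heat map of levels shows these 5 rows as the dark band.

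**Figure D1:**
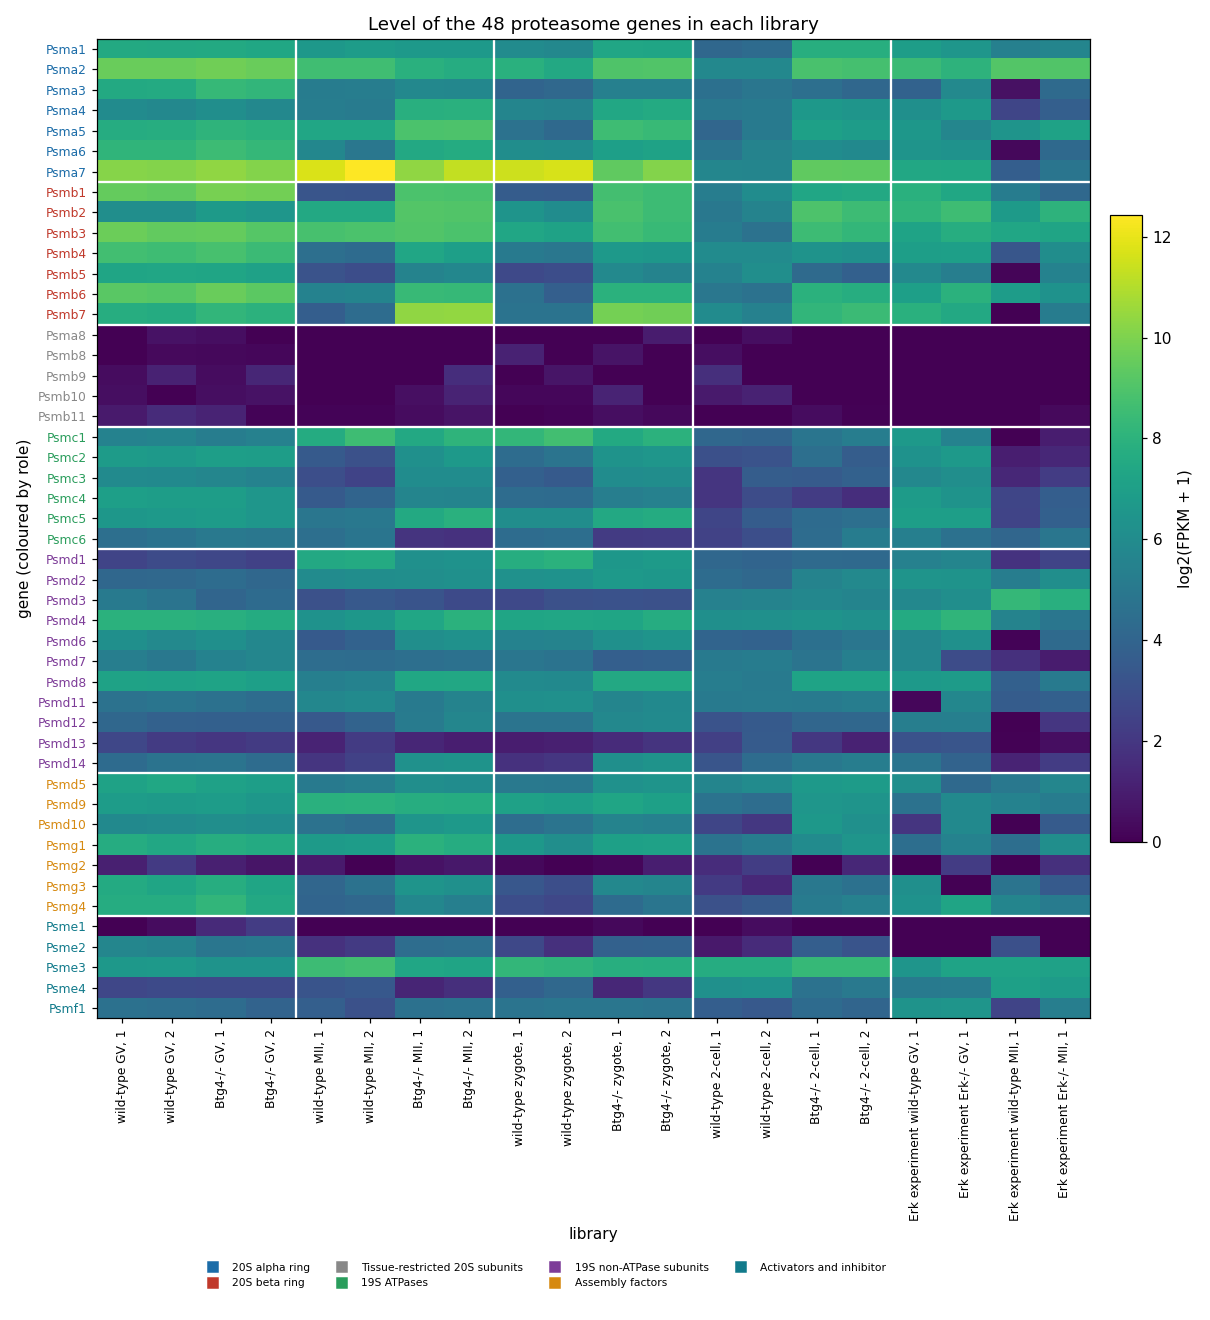
Level of each of the 48 proteasome genes (rows, coloured and ordered by role) in each of the 20 libraries (columns), as log2(FPKM + 1) on the colour scale. Wild-type MII and zygote columns are darker than GV in most rows of the beta ring, Psma7 is the brightest row there, and the 5 tissue-restricted rows stay dark throughout.

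At GV the genotypes differed in 2 of the 46 members. Psma3, an alpha subunit, read 323 and 292 FPKM under the Btg4-/- label and 183 and 190 in wild type, a log2 change of 0.72 ± 0.15 (SE; limma adjusted p = 0.0137). Both Btg4-/- libraries lay above both wild-type libraries. Psme1, a subunit of the PA28 activator that responds to interferon, read 1.76 and 3.57 against 0 and 0.33 FPKM, a log2 change of 1.62 ± 0.25 (adjusted p = 0.00294). These are levels near the floor, and the gene's highest value in the other 16 libraries was 0.351. Psme1 passed the filter through the Btg4-/- GV group alone, with a mean of 2.67 FPKM. It was thus tested only because of the group in which it was called higher. No member was lower, and 1.45% of all genes tested were higher and 6.46% lower at this stage. Without any 1 of the 4 GV libraries the Psma3 call was lost, at adjusted p from 0.0538 to 0.0952, and a fit on the 4 GV libraries alone called no gene at all, although 11 members had an unadjusted p below 0.05. Granulosa markers summed to 43.6 and 37.2 FPKM under the Btg4-/- label and 56.1 and 60.3 in wild type; their part in the result was not tested.

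From GV to MII most proteasome transcripts fell in the wild type, and a few rose steeply. Of 46 members 29 fell, 8 rose and 9 did not pass, against 28.5% of all genes falling and 25.2% rising, and the median log2 change was -1.12 for members and -0.02 over all genes tested. In the same step 5 of the 8 granulosa and cumulus markers tested fell, with sums going from 56.1 and 60.3 to 10.2 and 4.77 FPKM. Of the 4 blood and immune markers tested 2 rose, with sums going from 2.12 and 0.738 to 84.1 and 49.6 FPKM. The part of either list in the change of the proteasome genes was not tested. The beta ring took part most fully, with 6 of 7 falling. Psmb1 went from 724 and 661 FPKM to 8.59 and 8.50, a log2 change of -6.18 ± 0.19 (adjusted p = 1.13e-10). Every MII value lay far below every GV value. Psmb5, which carries the chymotrypsin-like site, went from 160 and 164 to 8.18 and 6.56 FPKM, a change of -4.29 ± 0.23 (adjusted p = 9.09e-09). Psmb4, a structural beta subunit, went from 401 and 381 to 22.2 and 19 FPKM, a change of -4.19 ± 0.15 (adjusted p = 3.02e-10). Psmb2 was the exception in the ring and rose from 69.8 and 69.9 to 183 and 182 FPKM, with a change of 1.37 ± 0.20.

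Of the other classes, 5 of 7 alpha subunits fell, as did 4 of 6 ATPases, 6 of 11 non-ATPase subunits, 5 of 7 assembly factors and 2 of 5 activators and inhibitors. Among the tissue-restricted genes Psmb11 also fell, from 0.886 and 1.86 to 0.0896 and 0.0739 FPKM. It lay near the floor and passed the filter through the wild-type GV group alone (mean 1.37 FPKM). The steepest rises were in the 19S particle and the alpha ring. Psmd1, the scaffold that was among the lowest at GV, went from 4.89 and 6.08 FPKM to 182 and 193, a log2 change of 4.87 ± 0.15 (adjusted p = 1.13e-10). Psmc1, an ATPase of the 19S base, went from 44.7 and 47.7 to 202 and 374 FPKM, a change of 2.55 ± 0.28 (adjusted p = 6.58e-06). Psma7 went from 1157 and 1097 to 3386 and 5505 FPKM, a change of 1.94 ± 0.29 (adjusted p = 9.83e-05). The 2 MII libraries were far apart for Psma7, yet both exceeded both GV libraries. FPKM is a share of each library, so a rise can be a smaller loss than that of other transcripts, and less RNA per cell and fewer cells cannot be told apart.

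Under the Btg4-/- label the same step was split differently. Of 46 members 17 fell, 14 rose and 15 did not pass, against 18.1% of all genes falling and 27.3% rising, and the median was -0.12 for members and 0.14 over all genes. The 17 included Psme1, which had passed the filter through the Btg4-/- GV group alone. That group is the higher side of this step, so the fall of Psme1 carries no weight. Of the 29 members that fell in the wild type, 14 also fell under the Btg4-/- label, 10 did not pass and 5 rose. Those 5 were Psma4, Psmb7, Psmc5, Psmd8 and Psmd14, and they were singled out after their values were seen. The 2 genotypes share no library in this count, which was not made over all genes. Whether such a split is usual for genes in these libraries is thus not known. The 14 that fell in both included 4 of the beta ring, Psmb1, Psmb4, Psmb5 and Psmb6, and the alpha ring chaperones Psmg3 and Psmg4. Psmc6, an ATPase, fell under the Btg4-/- label, from 31.5 and 29.3 to 2.61 and 2.39 FPKM (-3.16 ± 0.26), and stood at 22.0 and 25.5 at GV and 22.1 and 27.6 at MII in the wild type.

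The difference between genotypes in this step was itself tested as an interaction. The step was higher under the Btg4-/- label in 25 of 46 members and lower in 7, against 26.5% and 16% of all genes tested, with a median of 1.09 for members and 0.22 over all genes. The 25 held 6 of 7 beta subunits, 4 of 6 ATPases, 5 of 7 assembly factors, 5 of 11 non-ATPase subunits, 3 of 7 alpha subunits and 2 of 5 activators and inhibitors. The 7 were Psma2, Psma7, Psmc6, Psmd1, Psme1, Psme3 and Psme4. Psme1 had passed the filter through the Btg4-/- GV group alone, which is part of this contrast. After a correction for transcript length the counts were 20 higher and 13 lower, against 20.2% and 19.8% of all genes. The median was then 0.42 for members and -0.03 over all genes.

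At MII the proteasome genes stood higher under the Btg4-/- label, above all in the beta ring. At this stage 26 of the 46 were higher, 7 were lower and 13 failed to pass; the first 2 counts are 56.5% and 15.2% of those tested against 29.1% and 23.3% of all genes. The median log2 change was 1.10 for members and 0.09 over all genes. The 26 held 6 of 7 beta subunits, 4 of 7 alpha subunits, 4 of 6 ATPases, 5 of 11 non-ATPase subunits, 5 of 7 assembly factors and 2 of 5 activators and inhibitors. With the length correction the counts were 23 higher and 13 lower, against 25.1% and 26% of all genes. Lower calls were then no less frequent among members than among all genes. The median with this correction was 0.59 for members and -0.03 over all genes. Haemoglobin transcripts also differed between these groups: the 8 blood and immune markers summed to 84.1 and 49.6 FPKM in wild-type MII, of which Hba-a1 made up 66.1 and 44.5, and to 1.59 and 0 under the Btg4-/- label, while Ptprc was at 0 in all of them. The 11 granulosa and cumulus markers summed to 10.2 and 4.77 against 2.11 and 0.854 FPKM; the part of either list in the result was not tested.

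In the alpha ring Psma4 read 229 and 234 FPKM under the Btg4-/- label and 37.8 and 34.9 in wild type, a log2 change of 2.64 ± 0.14 (adjusted p = 1.09e-08). Psma6 read 179 and 198 against 53.2 and 29.2 FPKM, a change of 2.23 ± 0.26 (adjusted p = 9.75e-06). Psma5 read 473 and 497 against 160 and 165 FPKM, a change of 1.57 ± 0.24 (adjusted p = 0.000117). In these 3 the groups were apart by far more than the libraries within them. Psma2 and Psma7 went the other way. Psma2 read 240 and 203 against 393 and 388 FPKM (-0.82 ± 0.13, adjusted p = 0.00011). Psma7 read 1314 and 2467 against 3386 and 5505 FPKM (-1.26 ± 0.29, adjusted p = 0.0027). The Psma7 libraries within a group were almost as far apart as the groups, although no Btg4-/- value reached a wild-type value. In a fit on the 4 MII libraries alone its adjusted p was 0.119.

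In the beta ring Psmb7, which carries the trypsin-like site, read 1295 and 1379 FPKM under the Btg4-/- label and 12.2 and 20.3 in wild type, a log2 change of 6.32 ± 0.21 (adjusted p = 4.53e-10). This was the largest change of any member in any of the 4 genotype comparisons. Psmb1 read 479 and 458 against 8.59 and 8.50 FPKM, a change of 5.62 ± 0.19 (adjusted p = 5.06e-10). Psmb6, the subunit with the caspase-like site, read 332 and 321 against 43.8 and 47.4 FPKM, a change of 2.81 ± 0.22 (adjusted p = 2.92e-07). Psmb2, Psmb4 and Psmb5 were also higher, by 1.56 to 2.74. The remaining subunit, Psmb3, read 539 and 476 against 450 and 479 FPKM, and these groups overlapped (0.13 ± 0.19, adjusted p = 0.623). Pseudogenes of Psmb5, Psmb6 and Psmb7 are named in GENCODE M21 but not in the deposited tables, and how reads shared with such copies were counted is not given in the sources used here.

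The 6 ATPases unfold substrates as a ring at the base of the 19S particle. Psmc3 read 64.6 and 65.6 FPKM under the Btg4-/- label and 6.87 and 4.71 in wild type, a log2 change of 3.30 ± 0.39 (adjusted p = 1.37e-05). Psmc2 read 74.4 and 105 against 10.5 and 7.5 FPKM, a change of 3.18 ± 0.26 (adjusted p = 5.61e-07). Psmc4 and Psmc5 were higher by 1.85 and 2.79. Psmc6 was the one ATPase that was lower, at 2.61 and 2.39 against 22.1 and 27.6 FPKM, a change of -2.88 ± 0.26 (adjusted p = 1.17e-06). Neighbours in one ring of the complex thus differed between genotypes in opposite directions. Psmc1 read 181 and 272 against 202 and 374 FPKM, which overlap (-0.31 ± 0.28, adjusted p = 0.397).

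Among the non-ATPase subunits Psmd14, the deubiquitinase that cuts the chain off the substrate, read 77.8 and 83.6 FPKM under the Btg4-/- label and 2.73 and 4.26 in wild type, a log2 change of 4.21 ± 0.31 (adjusted p = 1.82e-07). Psmd6, a subunit of the lid, read 68.6 and 76.0 against 10.4 and 14.2 FPKM (2.48 ± 0.19, adjusted p = 3.14e-07). Psmd8, also of the lid, read 168 and 175 against 39.8 and 44.5 FPKM (2.00 ± 0.11, adjusted p = 1.38e-08). Psmd4 and Psmd12 were higher by 1.19 and 1.72. Psmd1, the base scaffold, was lower, at 74.1 and 79.9 against 182 and 193 FPKM (-1.27 ± 0.15, adjusted p = 1.18e-05). Psmd11, a lid subunit, was lower too, at 32.9 and 45.9 against 53.1 and 59.9 FPKM (-0.52 ± 0.17, adjusted p = 0.0205). The Psmd11 call was lost without the first Btg4-/- MII library (adjusted p = 0.214), without the second wild-type MII library (0.115) and on the 4 MII libraries alone (0.132). Psmd7, the partner of Psmd14 in the lid, read 22.6 and 24 against 20.5 and 19.8 FPKM and did not pass (0.20 ± 0.19, adjusted p = 0.421).

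Assembly factors were higher or did not pass. Psmd10, a chaperone of the ATPase ring also known as gankyrin, read 89.2 and 104 FPKM under the Btg4-/- label and 24.4 and 20.4 in wild type, a log2 change of 2.06 ± 0.21 (adjusted p = 2.92e-06). The alpha ring chaperone Psmg3 read 85.3 and 75.4 against 16.2 and 25.0 FPKM (1.94 ± 0.27, adjusted p = 4.48e-05). Its partner Psmg4 read 52.2 and 40.3 against 14.8 and 16.7 FPKM (1.49 ± 0.25, adjusted p = 0.000258). All Btg4-/- values of these 3 lay above the wild-type values. With the length correction Psmg4 was at 0.51 (adjusted p = 0.105). Psmd9 was at 211 and 205 against 233 and 241 FPKM (-0.19 ± 0.14, adjusted p = 0.289).

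The activators were divided. Psme2, the partner of Psme1 in the PA28 activator, read 21.0 and 22.3 FPKM under the Btg4-/- label and 2.39 and 3.26 in wild type, a log2 change of 2.58 ± 0.31 (adjusted p = 1.37e-05). Psme3, the nuclear form of that activator, was lower, at 160 and 152 against 372 and 403 FPKM (-1.31 ± 0.09, adjusted p = 1.67e-07). Psme4, the large activator PA200, was also lower, at 1.44 and 2.16 against 8.33 and 9.67 FPKM (-1.84 ± 0.24, adjusted p = 3.01e-05). The inhibitor Psmf1 was higher by 1.27 ± 0.23. The plot of changes by role shows the 7 lower members at MII spread over 4 of the classes.

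**Figure D2:**
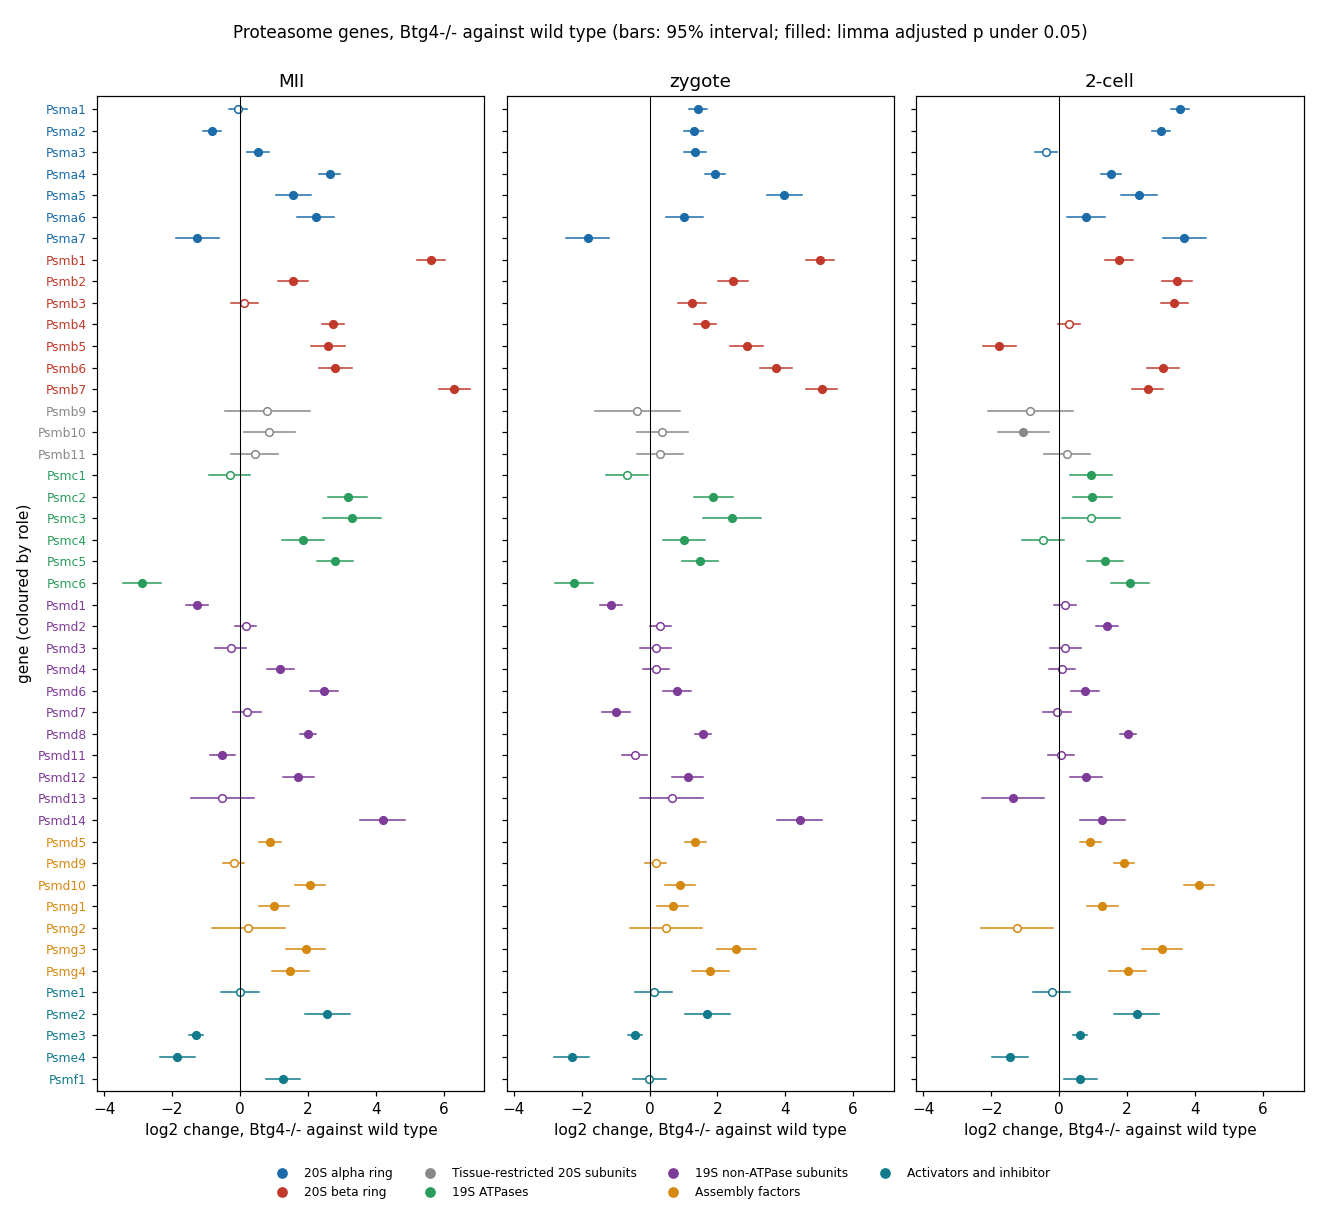
Log2 change of each of the 46 tested members, Btg4-/- against wild type, at MII, in the zygote and at the 2-cell stage (x axes, panels), by gene (y axis, coloured by role). Bars are 95% intervals, filled points passed the limma test, and Psmb7 and Psmb1 lie farthest to the right at MII and in the zygote.

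Zygotes, which share no library with MII, also held more members higher than lower under the Btg4-/- label. In zygotes 27 of 46 were higher and 6 were lower, with 13 not passing, against 24.4% and 23.3% of all genes, and the median was 1.02 for members and 0.01 over all genes. With the length correction the counts were 22 higher and 8 lower, against 22.7% and 23.7% of all genes. The median was then 0.51 for members and -0.01 over all genes. Of the 10 oocyte markers 6 were also higher under the Btg4-/- label and 1 was lower, with sums of 8304 and 7537 FPKM against 5533 and 4673; their part in the result was not tested. Higher at both stages were 24 members, which is 92.3% of those at MII and 88.9% of those in zygotes. Over all genes tested the higher calls shared by both stages were 65.9% of those at MII and 78.8% of those in zygotes. Lower at both were 5, 71.4% and 83.3%, namely Psma7, Psmc6, Psmd1, Psme3 and Psme4, and over all genes these shares were 74.1% and 74.1%. All 7 beta subunits and 6 of 7 alpha subunits were higher in zygotes. Psma2 was lower at MII and higher in zygotes, at 505 and 523 against 238 and 183 FPKM (1.30 ± 0.13, adjusted p = 2.99e-06).

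The largest differences in zygotes were again in Psmb7, at 914 and 860 FPKM under the Btg4-/- label against 25.3 and 25.6 (5.07 ± 0.21), and Psmb1, at 414 and 370 against 11.3 and 10.8 (5.03 ± 0.19). Psma7 read 665 and 1128 against 2904 and 3226 FPKM (-1.82 ± 0.29, adjusted p = 0.000214). Psmc6 read 3.54 and 3.66 against 20.1 and 21.2 FPKM (-2.23 ± 0.26, adjusted p = 1.52e-05). Both were lower in every Btg4-/- zygote library than in either wild-type library. Psmd1 read 96.1 and 110 against 211 and 242 FPKM (-1.13 ± 0.15). Psme3 read 217 and 213 against 300 and 273 FPKM (-0.41 ± 0.09), and Psme4 read 1.63 and 3.02 against 13 and 17.1 FPKM (-2.29 ± 0.24). Psmd7, which had not passed at MII, was lower in zygotes, at 12.6 and 13.7 against 28.1 and 25.6 FPKM (-0.98 ± 0.19, adjusted p = 0.00101).

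Between MII and the zygote falls were the more frequent change relative to all genes. In the wild type 10 of 46 members rose (21.7%), 11 fell (23.9%) and 25 did not pass, against 20.5% and 8% of all genes. With median-of-ratios scaling the counts were 6 rising and 13 falling. The shares of all genes in each direction were not counted with that scaling, which shifted the median of all genes by -0.18. The largest rise was in Psmd6, from 10.4 and 14.2 to 44.3 and 46.7 FPKM (1.82 ± 0.19). The inhibitor Psmf1 went from 12.7 and 7.34 to 26.7 and 28.4 FPKM (1.42 ± 0.23), and Psmc2 from 10.5 and 7.5 to 19.9 and 26.6 (1.28 ± 0.26). In these 3 both zygote values exceeded both MII values. The largest fall was in Psma5, from 160 and 165 to 24.8 and 18.3 FPKM (-2.87 ± 0.24). Psmb3 went from 450 and 479 to 163 and 143 FPKM (-1.60 ± 0.19) and Psmb6 from 43.8 and 47.4 to 24.2 and 12.7 (-1.33 ± 0.22).

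Under the Btg4-/- label 3 members rose, 7 fell and 36 did not pass in that step, against 10.3% and 5.38% of all genes. That count of 7 depended on single libraries and on the scaling. It was 2 or 3 without any 1 of the 4 Btg4-/- MII and zygote libraries, 12 with median-of-ratios scaling and 2 with the length correction. The interaction of genotype with this step was higher in 6 members and lower in 11, against 4.95% and 7.25% of all genes. With the length correction it was higher in 8 and lower in 5, against 6.49% and 5.84% of all genes. The 11 became 2 to 5 without any 1 of the zygote libraries, the second Btg4-/- MII library or the second wild-type MII library. In the alpha ring Psma2 rose under the Btg4-/- label (1.22 ± 0.13) and fell in the wild type (-0.90 ± 0.13), with an interaction of 2.12 ± 0.18 (adjusted p = 1.92e-05).

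At the 2-cell stage most proteasome transcripts were still higher under the Btg4-/- label, with a different order among them. Higher were 29 of 46 and lower 4, with 13 not passing, against 22.6% and 26.4% of all genes, and the median was 0.93 for members and -0.05 over all genes. At this stage all 10 oocyte markers were higher under the Btg4-/- label as well, with sums of 8221 and 7993 FPKM against 2217 and 2033; their relation to the proteasome genes was not tested. Psmd10 led with 96.3 and 73.5 against 5.0 and 3.02 FPKM, a log2 change of 4.12 ± 0.21 (adjusted p = 1.01e-08). Psma7, lower at MII and in zygotes, read 677 and 644 against 50.7 and 50.2 FPKM (3.68 ± 0.29, adjusted p = 4.9e-07). Psma1 read 218 and 221 against 16.6 and 19.1 FPKM (3.55 ± 0.12, adjusted p = 6.33e-10). For all 3 the values of the genotypes were far apart.

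The 4 lower members at 2 cells were Psmb5, Psmb10, Psmd13 and Psme4. Psmb5 read 18.9 and 13.1 FPKM under the Btg4-/- label and 44.8 and 69.7 in wild type (-1.76 ± 0.23, adjusted p = 3.37e-05), after having been higher at MII and in zygotes. Psme4 read 24.4 and 31.9 against 75.7 and 79.1 FPKM (-1.44 ± 0.24, adjusted p = 0.0003). Psmd13, a lid subunit, read 3.08 and 1.30 against 4.18 and 10.7 FPKM (-1.35 ± 0.42, adjusted p = 0.0183). The second wild-type library alone was high, and without it Psmd13 did not pass (adjusted p = 0.208) and 2 members were lower. Without the second Btg4-/- library Psmd13 did not pass either (0.154). Psmb10 was near the floor, at 0 and 0 against 0.890 and 1.27 FPKM. It passed the filter through the wild-type 2-cell group alone, with a mean of 1.08 FPKM.

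Across MII, zygote and 2-cell embryos, which share no library, 19 members were higher at all 3 stages and 1, Psme4, was lower at all 3. These are 41.3% and 2.17% of the 46 members tested, against 8.64% and 4.54% of all genes. With the length correction 14 of the 19 kept all 3 calls, and Psma6, Psmd6, Psmd10, Psmg1 and Psmg4 did not. Without 1 library 16 to 19 of them kept all 3, and those lost in at least 1 case were Psma6, Psmc2, Psmd6, Psmd12 and Psmg1. The 19 included Psmb1, Psmb2, Psmb6 and Psmb7 of the beta ring, Psma4, Psma5 and Psma6 of the alpha ring, and 5 assembly factors. Psma2, Psma7, Psmc6 and Psme3 were lower at MII and higher at 2 cells, and Psmb5 was higher at MII and lower at 2 cells. The plot of stage courses follows 9 of these genes library by library.

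**Figure D3:**
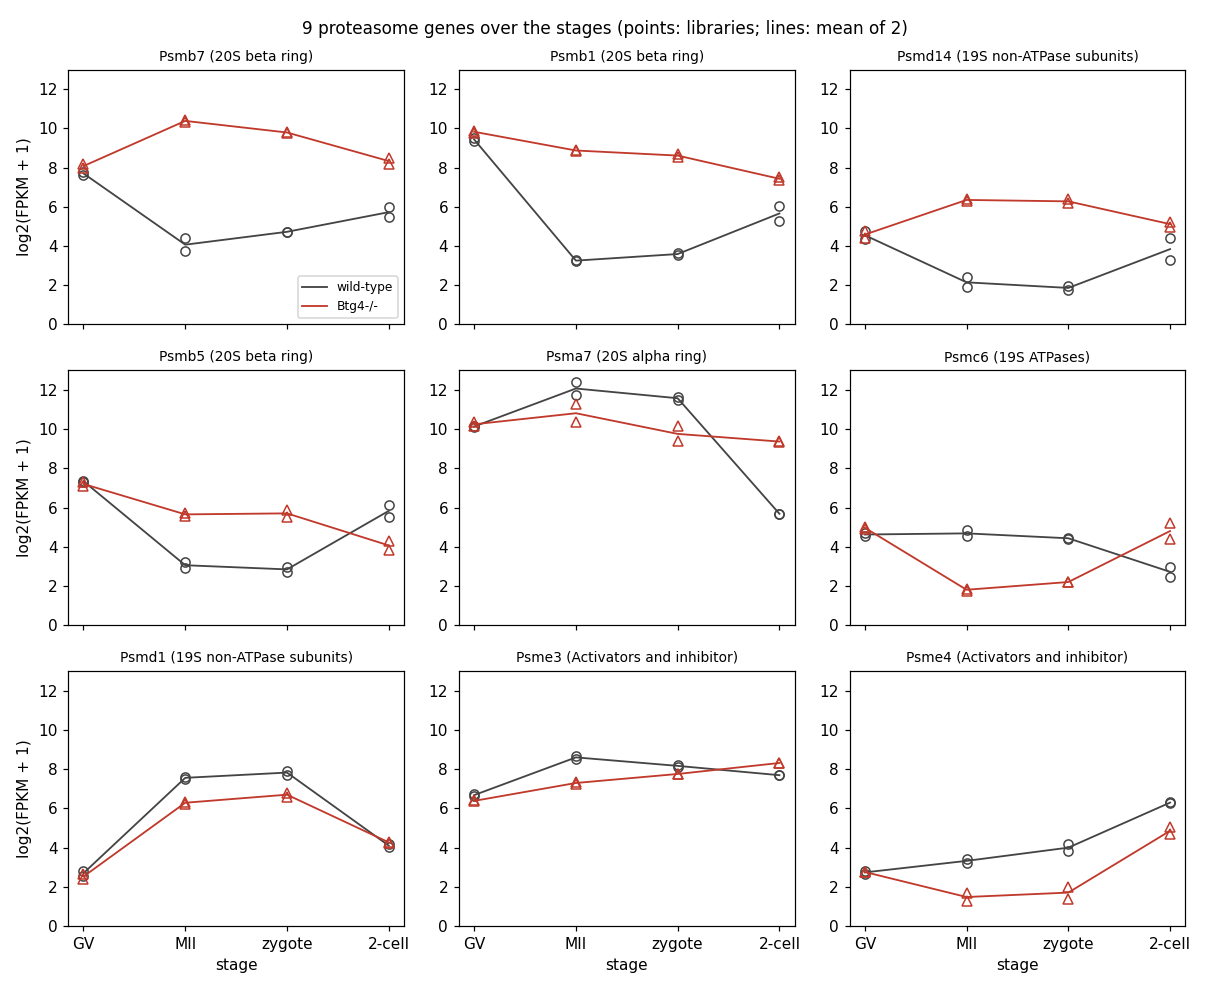
Level of 9 proteasome genes as log2(FPKM + 1) (y axis) at the 4 stages (x axis), with each library as a point (circles wild type, triangles Btg4-/-) and a line through the mean of 2. The genotypes meet at GV. At MII they separate upwards for Psmb7, Psmb1, Psmd14 and Psmb5 and downwards for Psma7, Psmc6, Psmd1, Psme3 and Psme4. The lines cross before the 2-cell stage for Psmb5, Psma7, Psmc6 and Psme3, and also for Psmd1, whose values at 2 cells lie close together.

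From zygote to 2 cells 26 members fell in the wild type, 12 rose and 8 did not pass, against 30.2% falling and 27.1% rising of all genes, with medians of -0.87 and -0.06. The fall was widest among the ATPases, with 5 of 6, and the beta ring moved the other way, with 5 of 7 rising. Psma7 went from 2904 and 3226 to 50.7 and 50.2 FPKM (-5.90 ± 0.29, adjusted p = 5.1e-09). Psmc1 went from 296 and 402 to 16.9 and 15.1 FPKM (-4.35 ± 0.28), and Psmd1 from 211 and 242 to 17.0 and 15.3 (-3.73 ± 0.15). These are the 3 members that had risen most between GV and MII. Psmb5 rose from 5.65 and 6.77 to 44.8 and 69.7 FPKM (2.99 ± 0.23, adjusted p = 2.07e-07). Psmd3, a lid subunit, rose from 5.76 and 7.48 to 42.6 and 45.5 FPKM (2.57 ± 0.21), and Psme4 from 13 and 17.1 to 75.7 and 79.1 (2.30 ± 0.24). Under the Btg4-/- label 23 members fell, 9 rose and 14 did not pass, against 28.2% and 18.3% of all genes. None of the 7 beta subunits rose in that group. The interaction was higher in 14 members and lower in 11, against 22.2% and 25.9% of all genes. It was highest for Psma7 (5.50 ± 0.41, adjusted p = 5.2e-07) and lowest for Psmb5 (-4.62 ± 0.32, adjusted p = 2.83e-07).

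The subunits of one complex drifted apart and came together again in the wild type. Over the 14 core subunits the SD of log2(FPKM + 1) was 1.30 and 1.29 at GV, 2.41 and 2.57 at MII, 2.18 and 2.20 in zygotes and 0.615 and 0.573 at 2 cells. At MII the core ran from 8.18 to 3386 FPKM in the first library and from 6.56 to 5505 in the second, with Psmb5 lowest and Psma7 highest in both. At 2 cells it ran from 16.3 to 63.4 and from 19.1 to 69.7 FPKM. Under the Btg4-/- label the SD was 1.25 and 1.26 at GV, 1.47 and 1.60 at MII, 1.32 and 1.40 in zygotes and 1.57 and 1.66 at 2 cells. The medians of the 14 were 48.5 and 42.3 FPKM in wild-type MII and 286 and 278 under the Btg4-/- label, and 33.8 and 44.7 against 190 and 199 FPKM at 2 cells. Over the 17 subunits of the 19S particle the wild-type SD was 1.53 and 1.54 at GV, 1.82 and 1.82 at MII, 1.98 and 2.00 in zygotes and 1.32 and 0.963 at 2 cells, also widest before the 2-cell stage and narrowest at it. For the same 17 subunits under the Btg4-/- label the SD was 1.63 and 1.55 at GV and 1.86 and 2.06 at MII. In zygotes it was 1.86 and 1.89, and at 2 cells 1.29 and 1.51. The 19S particle thus widened and narrowed under both labels. In the Erk experiment the SD of the core was 1.16 at GV and 3.05 at MII in wild type. Under the Erk-/- label it was 0.963 and 1.59. These spreads are given as a description, with no test. No genes outside the proteasome were measured in this way, so whether other sets widened and narrowed alike is not known.

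**Figure D4:**
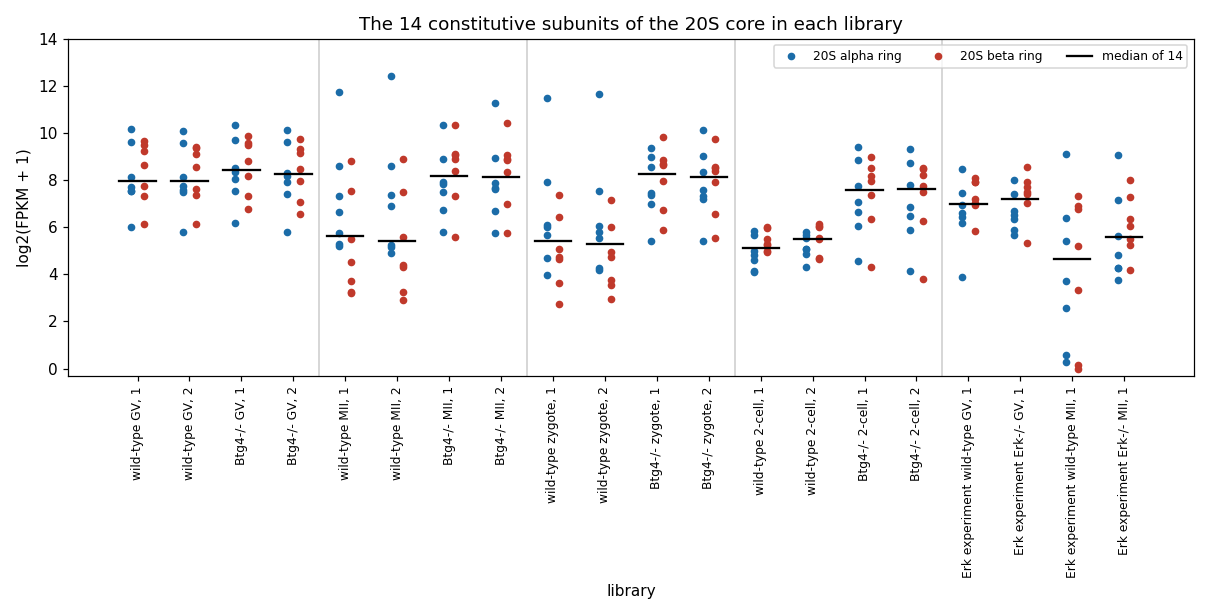
Level of each of the 14 constitutive subunits of the 20S core as log2(FPKM + 1) (y axis) in each of the 20 libraries (x axis), with alpha subunits in blue, beta subunits in red and a black line at their median. Points spread widely in wild-type MII and zygote libraries, where Psma7 stands alone at the top, and lie close together in both wild-type 2-cell libraries.

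In the Erk experiment 42 of the 48 genes reached 1 FPKM in at least 1 of the 4 libraries, and differences of at least 2-fold were counted without a test. The wild-type MII library stood apart from the other 3 before any comparison: 7265 symbols reached 1 FPKM in it against 8909 to 9253, and 32 of the 48 members against 39 or 40, although its estimated depth was the highest. From GV to MII 29 members were lower and 4 higher in the wild type, against 46.9% and 20.4% of 11404 genes, and the median difference was -2.38 for members and -0.76 over all genes. With median-of-ratios scaling the counts were 23 lower and 7 higher, and the shares of all genes were not counted with it. All 6 ATPases and 9 of 11 non-ATPase subunits were lower. Of the 48 genes 11 were listed at 0 in the wild-type MII library and 8 in wild-type GV, and such a 0 can be a failed estimate. Psmb7 was at 240 FPKM at GV and listed at 0 at MII, and Psmc1 was at 106 and listed at 0. Psma6 was at 84.4 and 0.214 FPKM, a log2 difference of -6.14. The highest 3 were Psmd11, from 0.173 to 11.1 FPKM (3.36), Psme2, listed at 0 at GV and at 7.06 at MII, and Psmd3, from 54.5 to 314 (2.50). In the libraries labelled Erk-/- the step was lower in 24 members and higher in 6, against 33.4% and 23.9% of all genes, with medians of -1.66 and -0.09. The lowest there were Psmc2, from 99.9 to 1.57 FPKM (-5.30), Psmc1, from 45.2 to 1.03 (-4.51), and Psmc3, from 68.8 to 3.58 (-3.93). Psmg3 was listed at 0 at GV and stood at 10.4 FPKM at MII, Psmd3 went from 69.3 to 229 (1.71) and Psme4 from 34.7 to 111 (1.64).

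At MII 18 members were at least 2-fold higher under the Erk-/- label and 3 lower, against 30.7% and 8.08% of all genes, with medians of 0.81 and 0.26. This comparison and the wild-type step both rest on the wild-type MII library with fewer detected symbols, and its part in them cannot be told apart from that of the label or the stage. With median-of-ratios scaling 11 were higher and 7 lower, and the median was 0.35. Shares of all genes were not counted with that scaling. Psmb5 read 44.9 FPKM under the Erk-/- label and 0.126 in wild type (5.35), Psmb7 read 36.8 and was listed at 0, and Psmd6 read 18.4 and 0.0785 (4.17). On the other side, Psme2 was listed at 0 and read 7.06 in wild type, Psmg3 read 10.4 and 26.2 FPKM (-1.25), and Psmb1 read 17.4 and 36.1 (-1.01). Of these genes Psmb5, Psmb7 and Psmd6 stood higher at MII under both knockout labels. Psme2, Psmg3 and Psmb1 stood higher under the Btg4-/- label and lower under the Erk-/- label. They are the largest differences of the Erk comparison. Other members, such as Psma3, Psma6 and Psmd10, were also higher under both labels. This contrast was not tested. At GV 6 members were higher and 4 lower under the Erk-/- label, against 18.7% and 23.5% of all genes. Psmd11 read 53.3 and 0.173 FPKM (5.53) and Psmd10 read 59.4 and 2.79 (3.99), while Psmg2 read 3.56 and was listed at 0 in wild type. Psmd7 read 6.46 and 52.2 (-2.84), Psmd5, a chaperone of the ATPase ring, read 17.7 and 69.1 (-1.91), and Psmg3 was listed at 0 and read 71.8. With 1 library a group these differences have no replicate check.

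The wild-type step from GV to MII could be set side by side in the 2 experiments. Of 29 members that passed the test in the Btg4 experiment and were at least 2-fold apart in the Erk experiment, 22 went the same way and 7 the opposite way. The same count was not made over all genes, so whether these numbers are particular to the proteasome is not known. Psmd1, Psma7, Psmc1, Psmb2 and Psmd2 rose in the Btg4 experiment and were lower at MII in the Erk experiment. Psmd3 and Psme2 fell in the former and were higher in the latter. For Psma7 the levels were 1157 and 1097 FPKM at GV and 3386 and 5505 at MII in the Btg4 experiment, against 173 and 12.1 in the Erk experiment, whose wild-type MII library had the fewest symbols at 1 FPKM of all 20. The beta ring members Psmb1, Psmb4, Psmb5 and Psmb7 were lower at MII in both. The libraries of the 2 experiments differ in label and depth, and the difference between experiments was not tested.

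**Figure D5:**
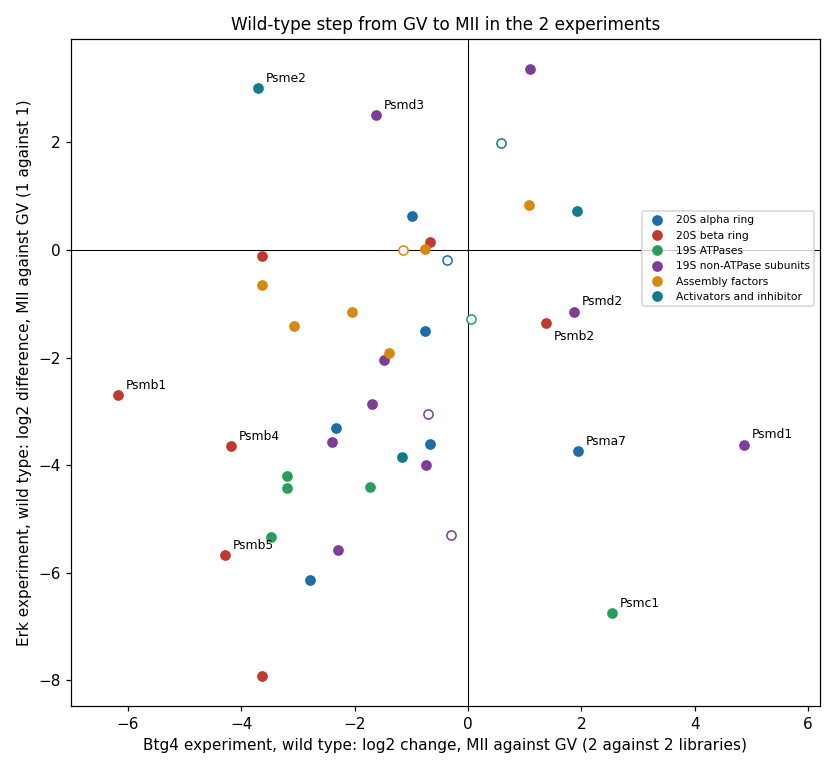
Log2 change from GV to MII in wild-type oocytes of the Btg4 experiment (x axis, 2 against 2 libraries) and log2 difference in wild-type oocytes of the Erk experiment (y axis, 1 against 1), with each point a member coloured by role and filled where limma called the x value. Most points lie in the lower left, and the 7 labelled members in the upper left and lower right go opposite ways.

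Among the members length went along with the direction of the change. Across the 46 members the log2 change at MII and the transcript length had a Spearman rho of -0.43, and in zygotes -0.47 and at 2 cells -0.35. With the length of the 3′ UTR rho was -0.35, -0.31 and -0.06. These are descriptions across genes that share libraries, with no p. The relation was not measured over all genes, so whether it is particular to the members is not known. The median transcript was 1352 bases in the 26 members higher at MII (555 to 4397), 2848 in the 7 lower (1157 to 6491) and 1581 in the 13 that did not pass. Median 3′ UTRs were 201, 1004 and 237 bases, against 282 over all 48 members and 875 over all protein-coding genes measured in the same way. Psma7, on chromosome 2 (mm9 179771081 to 179777107) with a transcript of 1157 bases, was the shortest of the 7 lower members, and Psme4, on chromosome 11 (mm9 30671775 to 30780361) with 6491 bases, was the longest. The loci of 5 members, Psma3, Psma4, Psmb5, Psmd1 and Psme1, overlapped that of another listed symbol. The median FPKM of each of those neighbours was 0.

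Other genes of the pathway moved in both directions. Of 28 such genes, among them ubiquitin precursors, shuttle factors, deubiquitinases and the maturation factor Pomp, 13 were higher, 9 lower and 6 did not pass at MII under the Btg4-/- label, against 29.1% and 23.3% of all genes. In zygotes 14 were higher and 7 lower (24.4% and 23.3% of all genes), at 2 cells 12 and 8 (22.6% and 26.4%), and at GV 0 and 2 (1.45% and 6.46%). At MII Rps27a, which encodes a ubiquitin fused to a ribosomal protein, read 231 and 277 FPKM against 14.3 and 5.36 (4.69 ± 0.31, adjusted p = 7.9e-08). Adrm1, a ubiquitin receptor of the 19S particle, read 157 and 164 against 41.8 and 40.4 FPKM (1.94 ± 0.20). Shfm1, the smallest subunit of the lid, read 572 and 470 against 145 and 134 FPKM (1.89 ± 0.24). These 3 were higher in both Btg4-/- libraries than in either wild-type library. Ubqln2, a shuttle factor, read 2.55 and 3.23 against 31.2 and 38.9 FPKM (-3.21 ± 0.25, adjusted p = 3.59e-07). Ngly1, which activates the transcription factor Nfe2l1 of proteasome genes, read 5.96 and 5.76 against 27.4 and 31.0 FPKM (-2.13 ± 0.21). Zfand5, which stimulates the proteasome, read 3.47 and 3.78 against 18.4 and 19.4 FPKM (-2.11 ± 0.15).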

How the data were processed

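RNA-seq was made from pools of 60 oocytes or embryos, 16 libraries in the Btg4 experiment and 4 in the Erk experiment. The deposited values are FPKM per gene, which the authors made with CASAVA 1.8, TopHat and Cufflinks on mm9, per the submitters' processing notes; versions of TopHat and Cufflinks are not stated there. FPKM is a share of each library and keeps no count of reads, and no source used here says whether counting used strand.

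Groups came from the labels. For each gene log2(FPKM + 1) was fitted with limma 3.58.1 in R 4.3.3, with 1 mean for each of the 8 groups of the Btg4 experiment and a mean-dependent prior variance, over 12311 genes with a group mean of at least 1 FPKM in at least 1 group. Adjusted p-values are Benjamini-Hochberg over all of these genes, called below 0.05. In the Erk experiment differences of log2(FPKM + 1) were called at 2-fold over 11404 genes, with no test. The fit was tested on simulated data. Members given library by library are the 3 largest called changes of each role class at MII, every member called lower at MII or in zygotes, every member called at GV, the 3 largest called changes in each direction at 2 cells and in each wild-type step, and the 3 largest past 2-fold in each direction of each Erk contrast; of the other pathway genes, the 3 largest called in each direction at MII. Members named beyond these did not pass, or were chosen after their values were seen. The members and all lists were chosen with earlier results of these data known. Alternatives were other pseudocounts and filters, median-of-ratios scaling, a correction that removes the trend with transcript length in each library, fits on single stages, the replicate number as a block, and leaving out each library. Transcript and UTR lengths came from GENCODE M21 (GRCm38) by symbol, and coordinates from the deposited tables (mm9). One gene bearing on the check of the Erk labels is not reported here.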

Additional observations from a re-analysis of the deposited data

Results flagged for a closer look

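The difference between genotypes was itself tested for each step. From GV to MII the step was higher under the Btg4-/- label in 25 of 46 members and lower in 7, against 26.5% and 16% of all genes. From MII to zygote it was higher in 6 and lower in 11, against 4.95% and 7.25%, and the 11 became 2 to 8 without 1 library. From zygote to 2 cells it was higher in 14 and lower in 11, against 22.2% and 25.9%.

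The wild-type step from GV to MII went opposite ways in the 2 experiments for 7 members, and the difference between experiments was not tested. How often all genes did so was not counted. In the Erk experiment the log2 difference was -3.73 for Psma7, -1.35 for Psmb2, -3.62 for Psmd1, -1.15 for Psmd2 and 2.50 for Psmd3, against changes of 1.94, 1.37, 4.87, 1.87 and -1.63 in the Btg4 experiment. Psmc1 was at 106 FPKM at GV and listed at 0 at MII in the Erk experiment, and rose by 2.55 in the Btg4 experiment. Psme2 was listed at 0 at GV and read 7.06 FPKM at MII in the Erk experiment, and fell by 3.71 in the Btg4 experiment. The Erk experiment has 1 library in each group, and its wild-type MII library had 7265 symbols at 1 FPKM against 8909 to 9253 in the other 3.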

How the results depend on the processing

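Counts of members called moved by over 1.5 times in these settings. At GV a filter at 5 FPKM gave 1 higher and 1 lower, and fitting those 4 libraries without the other stages gave 0 higher (0 genes called over all, with 11 members at an unadjusted p below 0.05). The length correction gave 13 lower at MII, 13 lower for the genotype difference in the step from GV to MII, 5 lower for that from MII to zygote, and 2 lower for the Btg4-/- step from MII to zygote. Over all genes the lower shares were then 26%, 19.8%, 5.84% and 5.56%, in that order. Median-of-ratios scaling gave 12 lower for that last step, 6 higher for the wild-type step from MII to zygote, 11 higher and 7 lower at MII under the Erk-/- label, and 7 higher in the wild-type step of the Erk experiment. Shares of all genes in each direction were not counted with median-of-ratios scaling. Leaving out 1 library gave 1 higher at GV in every case and 0 to 1 lower, 2 to 5 lower at 2 cells, 2 to 3 lower for the Btg4-/- step from MII to zygote, and 2 to 8 lower for its genotype difference. The causes were not tested.

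Medians of members near 0 changed sign. The wild-type step from MII to zygote went to -0.0143 with median-of-ratios scaling and -0.0014 with the length correction, and ran from 0 to 0.13 without 1 library. The genotype difference from zygote to 2 cells went to 0.22 with the 5 FPKM filter and 0.19 with the length correction, and ran from -0.12 to 0.14 without 1 library. The GV median ran from -0.13 to 0.14 and that of the Btg4-/- step from GV to MII from -0.29 to 0.0127 without 1 library. Median-of-ratios scaling shifted the median of all genes by 0.12 at GV, -0.18 for the wild-type step from MII to zygote, -0.17 and 0.12 for the Btg4-/- steps to MII and to 2 cells, and -0.19 for the genotype difference to MII.

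Among 1354 values of single named genes under alternatives, 1301 kept direction and side of the threshold, 53 kept direction but lost the call, and 0 reversed. The 125 results behind these values had all been called in the main fit, and most alternatives used the same libraries. A reversal was thus unlikely from the start. With the replicate number as a replicate block, MII gave 26 higher and 7 lower, zygotes 27 and 8 and 2 cells 30 and 4, and no count of calls moved by over 1.5 times. The labels do not say that a number marks shared animals. For each gene the first library of a group was compared with the second. These differences, taken over genes, correlated between groups by -0.015 to 0.126 over 28 pairs of groups. With 2 libraries a group and no read counts, low genes such as Psme1 and Psmb10 are the least certain.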
